A study of Mus musculus with 24 samples.

Results

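The 41 genes described here are expressed by the endothelium, the cell layer that lines blood and lymphatic vessels. Of 39056 genes in the count table, 36 were taken as blood endothelial genes and 5 (Lyve1, Prox1, Pdpn, Flt4 and Mmrn1) as lymphatic endothelial genes, and all 41 were found by their symbol. They were followed in CD45- cells sorted from the ileum of C57BL/6 mice. Cells with CD45 on their surface are hematopoietic, so the CD45- sort holds epithelial, endothelial and other stromal cells. The 4 genotypes were Hoil1+/+Il4raflox/flox (Hoil1+/+Il4ra f/f), the same with Vil1cre (Hoil1+/+Il4ra ΔIEC), Hoil1-/-Il4raflox/flox (Hoil1-/-Il4ra f/f), and the same with Vil1cre (Hoil1-/-Il4ra ΔIEC). All mice carried loxP sites in both Il4ra alleles, and Vil1cre deletes Il4ra in intestinal epithelial cells (IECs) because the Villin promoter drives the recombinase there, not in endothelium. The Hoil1-/- mice are a model of partial deficiency, which still make the N-terminal domain of HOIL1 at a reduced level. Mice of both sexes were 9 to 10.3 weeks old, and each genotype had 3 libraries from the CD45- and 3 from the CD45+ sort.

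Endothelial cells are held together by junction proteins such as VE-cadherin (Cdh5) and claudin-5 (Cldn5), and are kept alive and shaped by growth factor receptors for VEGF (Kdr, Flt1, Flt4) and for angiopoietins (Tek, with Tie1 as its partner). In the villus, a dense net of fenestrated capillaries takes up absorbed nutrients, and a central lymphatic vessel, the lacteal, takes up fat. Venules recruit leukocytes through selectins (Selp, Sele) and, in the gut, through MAdCAM-1 (Madcam1), the ligand of the integrin α4β7 on gut-homing lymphocytes.

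The CD45- libraries held between 6.03 and 68.3 M counts on genes (median 14.8 M). Rbck1, which encodes HOIL1, ranged from 73.3 to 110 CPM in the 6 Hoil1+/+ CD45- libraries and did not exceed 7.29 CPM in any of the 6 Hoil1-/- ones, so all 12 matched their Hoil1 label. Ptprc, which encodes CD45, was at 0 to 16.1 CPM in the CD45- and 252 to 755 CPM in the CD45+ libraries. CPM is the usual unit of counts relative to library size, with sizes scaled by the TMM method of edgeR over all 24 libraries. Replicate 3 of Hoil1-/-Il4ra f/f was left out of the tests, as the study left it out after a principal component analysis, and is shown wherever levels of single libraries are given. Replicate numbers follow the order of the samples and pair nothing across genotypes.

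The first comparison asked whether the 41 genes belonged to the CD45- sort. Of the 36 blood endothelial genes, 36 were higher in CD45- than in CD45+ cells, and of the 5 lymphatic genes 4 were (adjusted p under 0.05 in the quasi-likelihood test of edgeR over 21 libraries, which leaves out 2 CD45+ libraries the study also left out). Among all 18778 genes tested, 25.1% were higher in CD45- cells. The median log2 fold change was 6.69 for the blood genes and 5.57 for the lymphatic genes, against -0.03 for all genes. Only Icam2, Gpihbp1, Lyve1, Pdpn and Mmrn1 of the 41 genes had ranges of CPM that overlapped between the sorts, as the plot of CPM in both sorts shows.

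**Figure D1:**
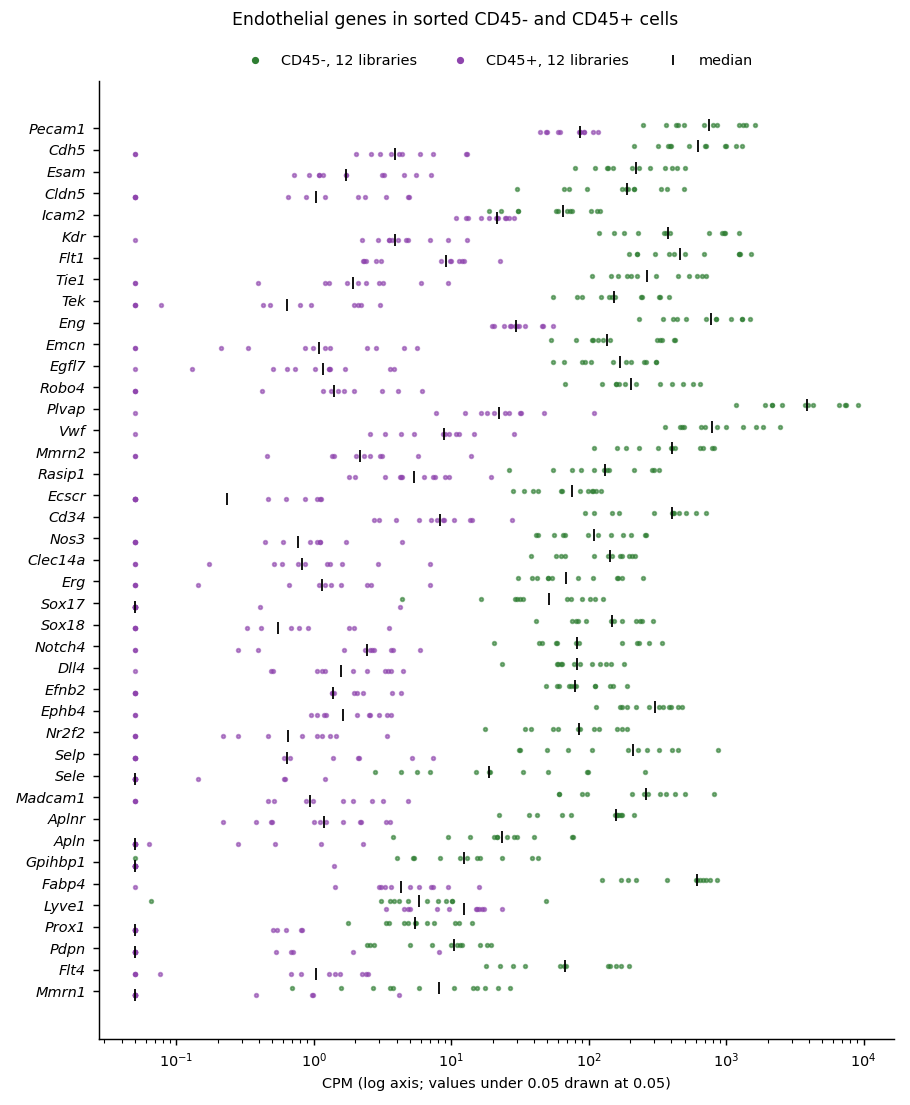
CPM of each of the 41 genes (rows) on a log axis in the 12 CD45- (green) and 12 CD45+ (purple) libraries, with a black bar at each median and values under 0.05 drawn at 0.05. Pecam1 ranges from 247 to 1618 CPM in CD45- and from 44.5 to 117 CPM in CD45+ libraries, while the ranges of Icam2 and Lyve1 overlap.

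Cdh5, the adhesion protein of endothelial junctions, was at 213 to 1303 CPM in the CD45- libraries and at 0 to 13.1 CPM in the CD45+ libraries, with a log2 fold change of 6.73 (SE 0.38, adjusted p = 2.09e-09, edgeR). The smallest differences among the blood genes were in Icam2 and Pecam1, adhesion molecules that leukocytes and platelets also carry. Icam2 was at 18.9 to 122 CPM in CD45- and 10.8 to 28.5 CPM in CD45+ cells (log2 fold change 1.53, SE 0.28, adjusted p = 0.000268, edgeR). For Pecam1 (CD31) the log2 fold change was 3.12 (SE 0.30, adjusted p = 3.37e-07, edgeR). Sox17, a transcription factor of arterial endothelium, had no count in 10 of the 12 CD45+ libraries and Gpihbp1, which anchors lipoprotein lipase to capillaries, none in 11. All 59 Gpihbp1 counts of the CD45+ sort came from 1 library. Without replicate 2 of CD45- Hoil1-/-Il4ra f/f, Gpihbp1 was no longer called and 39 of the 41 genes were.

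Lyve1, a hyaluronan receptor of lymphatic endothelium that resident macrophages also carry, was the gene that did not pass. It was at 0.0656 to 49.1 CPM (median 5.797) in CD45- and at 3.37 to 23.5 CPM (median 12.4) in CD45+ libraries, with a log2 fold change of -0.69 (SE 0.51, adjusted p = 0.307, edgeR). Without replicate 1 of CD45- Hoil1-/-Il4ra f/f, the log2 fold change of Lyve1 was -2.20. That fit keeps 1 library of this group, replicate 2, which held 2 Lyve1 counts (0.0656 CPM). Replicate 3 of the group, left out of the tests, was at 49.1 CPM. The summed level of 6 resident macrophage markers was 2562 to 10917 CPM in CD45+ and 4.66 to 49.5 CPM in CD45- libraries, with none of the 6 at 0 in all CD45- libraries. Their part in the Lyve1 values was not tested. Prox1, the transcription factor that specifies lymphatic endothelium, had a log2 fold change of 5.57 (SE 0.89, adjusted p = 0.000103, edgeR), with no count in 7 of 12 CD45+ libraries. Markers of enteroendocrine cells of the epithelium (5 genes) summed to 240 to 1378 CPM in CD45- and 0 to 5.73 CPM in CD45+ libraries. The part of these cells in the Prox1 values was not tested. The other lymphatic genes called were Flt4, the receptor of VEGF-C, at 6.99 (SE 0.60), Mmrn1, a secreted multimerin, at 6.70 (SE 1.12), and Pdpn, a mucin-like protein that fibroblasts also make, at 4.48 (SE 1.20) on the log2 scale.

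Compared per kilobase of exon, the scale on which levels of different genes can be set side by side, Plvap led all 41 genes. PLVAP forms the diaphragms of fenestrated capillaries, and its median level over the 12 CD45- libraries was 1942 CPM per kb (597.6 to 4600 per kb). The next in order were Eng, a TGF-β family co-receptor, at a median of 192 CPM per kb, Madcam1 at 182, Cdh5 at 147, Fabp4, a fatty acid carrier of capillaries, at 136, Cldn5 at 134 and Pecam1 at 120 CPM per kb. The Eng median lies just above the highest Fabp4 library, at 191 CPM per kb, and each other one of these 6 medians lies within the ranges of the 5 other genes. The range of Plvap starts above the highest Eng value of 366 CPM per kb. The 5 lymphatic genes lay between rank 34 and rank 41, at median levels of 8.19 (Flt4), 5.73 (Pdpn), 1.99 (Lyve1), 1.38 (Mmrn1) and 0.654 (Prox1) CPM per kb. Among the blood genes, Gpihbp1 was the lowest at 4.84 CPM per kb, then Sele at 6.50 and Apln at 7.47.

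The levels of these genes differed widely between CD45- libraries of the same genotype. Summed over the 36 blood genes, the CPM in replicates 1, 2 and 3 were 7088, 24253 and 13926 in Hoil1+/+Il4ra f/f, 7166, 6895 and 20735 in Hoil1+/+Il4ra ΔIEC, 4186, 8717 and 14293 in Hoil1-/-Il4ra f/f, and 23193, 28294 and 12394 in Hoil1-/-Il4ra ΔIEC. The highest library of a genotype held 2.28 to 3.42 times the lowest, and over all 12 the range was 6.76-fold. The ranges of all 4 genotypes overlapped. Age, as given in the labels, had a Pearson correlation of -0.365 with the log2 of these sums over the 12 libraries. Its direction was not the same in both ΔIEC genotypes. In Hoil1+/+Il4ra ΔIEC the 2 libraries at 9.7 weeks held 7166 and 6895 CPM of blood genes and the one at 9 weeks 20735 CPM, and in Hoil1-/-Il4ra ΔIEC the 2 at 9.6 weeks held 23193 and 28294 CPM and the one at 9.1 weeks 12394 CPM. In Il4ra f/f the Hoil1+/+ libraries were at 10.3, 9 and 9.1 weeks and the Hoil1-/- libraries at 9.4, 9.4 and 9.9 weeks. No age was shared by both Hoil1 genotypes within either Il4ra genotype, so no Hoil1 difference at one age could be had, and the part of age was not tested. In bulk samples such as these, CPM are relative to the counts of all cells. Fewer endothelial cells, less RNA per endothelial cell and more RNA from other cells cannot be told apart.

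Other cell types of the CD45- sort moved with these sums. The summed level of 15 epithelial markers ran from 2606 CPM in the library with the most blood endothelial signal (Hoil1-/-Il4ra ΔIEC replicate 2) to 45246 CPM in the one with the least (Hoil1-/-Il4ra f/f replicate 1). Ranked by blood endothelial sum, the 5 libraries at the top held between 2606 and 7919 CPM of epithelial markers, and the 5 at the bottom between 24621 and 45246 CPM. None of the 15 epithelial markers was at 0 in all CD45- libraries, and Epcam was at 163 to 1270 CPM. Fibroblast markers (8 genes, with Pdgfra at 2.94 to 56.4 CPM) summed to 458 CPM in the library lowest in blood genes and 9480 CPM in the highest. Markers of pericytes and smooth muscle (8 genes, with Rgs5 at 39.3 to 650 CPM) summed to 550 and 5617 CPM in the same pair. The part of cell composition in the genotype differences given below was not tested apart from the scaling to endothelial genes described there.

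**Figure D2:**
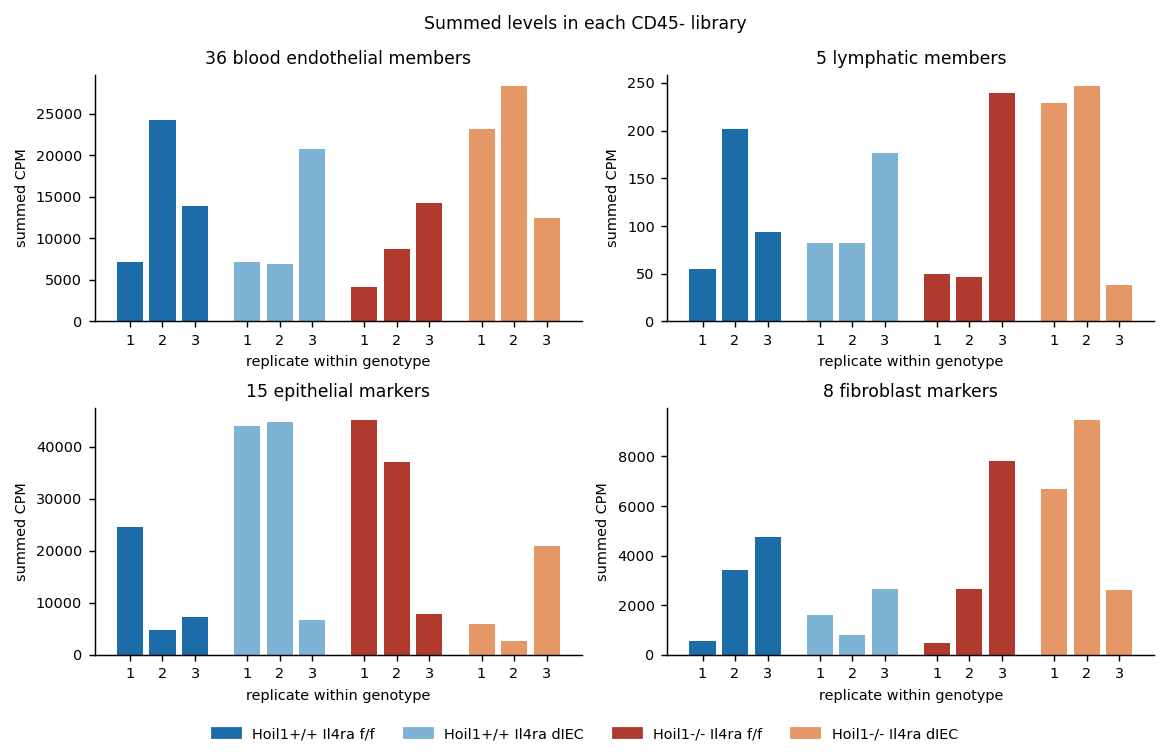
Summed CPM in each CD45- library for the 36 blood endothelial genes, the 5 lymphatic genes, 15 epithelial markers and 8 fibroblast markers; bars start at 0, are grouped and colored by genotype, and numbers on the x axis are replicates. Libraries with high endothelial bars, such as Hoil1-/-Il4ra ΔIEC replicate 2 at 28294 CPM, have low epithelial bars.

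The lymphatic sums had a 6.45-fold range over the 12 libraries. They were 54.9, 202 and 93.3 CPM in Hoil1+/+Il4ra f/f, 82.3, 82.5 and 177 CPM in Hoil1+/+Il4ra ΔIEC, 49.8, 46.5 and 239 CPM in Hoil1-/-Il4ra f/f, and 230, 247 and 38.2 CPM in Hoil1-/-Il4ra ΔIEC. The lowest value, 38.2 CPM, was in a library with 12394 CPM of blood genes, ranked 7 of 12 for those. Flt4, which fenestrated capillaries can also carry, was at 17.9 to 197 CPM. The other lymphatic genes reached at most 49.1 CPM.

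Individual genes followed the sum to different degrees. The log2 CPM of Pecam1, Cdh5 and Plvap had Pearson correlations of 0.996, 0.995 and 0.992 with the mean of the other blood genes over the 12 libraries, which share the same library sizes and cell composition. Pecam1 was at 434, 1334 and 859 CPM in Hoil1+/+Il4ra f/f, 443, 368 and 1236 in Hoil1+/+Il4ra ΔIEC, 247, 492 and 804 in Hoil1-/-Il4ra f/f, and 1385, 1618 and 693 in Hoil1-/-Il4ra ΔIEC. Plvap was at 1927, 7344 and 3959 CPM, then 2155, 2166 and 6615, then 1187, 2548 and 4316, and last 7442, 9141 and 3758 CPM in the same order. Both genes were highest in replicate 2 of Hoil1-/-Il4ra ΔIEC and lowest in replicate 1 of Hoil1-/-Il4ra f/f. The correlation was low for Prox1 (-0.217), Lyve1 (0.321), Apln (0.343), Cldn5 (0.477), Sele (0.543), Madcam1 (0.547), Dll4 (0.604) and Selp (0.633).

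**Figure D3:**
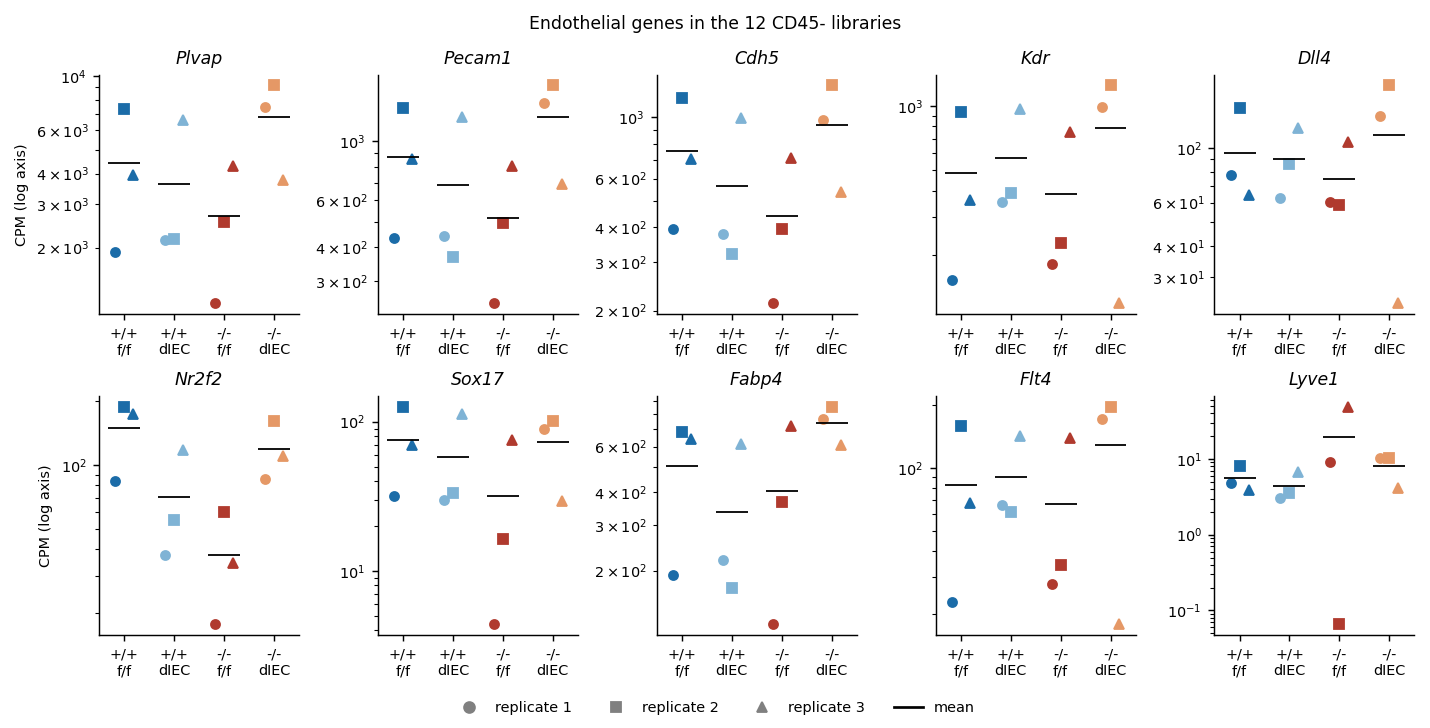
CPM of 10 endothelial genes in the 12 CD45- libraries on log axes, by genotype, with marker shapes for replicates 1 to 3 and a bar at each mean. In Plvap the libraries run from 1187 to 9141 CPM with all 4 genotypes overlapping, while Lyve1 runs from 0.0656 to 49.1 CPM.

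The members were then taken by their roles. The 5 junction and adhesion genes summed to 667 to 3756 CPM in CD45- libraries. Cldn5, the tight junction claudin of endothelium, ran from 30.1 to 493 CPM and Icam2 from 18.9 to 122 CPM. The 5 receptors for VEGF, angiopoietins and TGF-β family ligands summed to 771 to 5281 CPM, with Tek, the angiopoietin receptor, at 54.7 to 382 CPM (median 152) and Tie1 at 105 to 709 CPM (median 265). Kdr was lowest in replicate 3 of Hoil1-/-Il4ra ΔIEC and the other 4 receptors in replicate 1 of Hoil1-/-Il4ra f/f, while Kdr, Flt1, Tie1 and Eng were highest in replicate 2 of Hoil1-/-Il4ra ΔIEC.

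The 11 surface, matrix and signaling genes summed to 2090 to 15407 CPM. Vwf, the clotting factor that endothelium stores, was at 362 to 2451 CPM (median 785), Cd34, a sialomucin that some fibroblasts also carry, at 93.4 to 712 CPM (median 406), and Mmrn2, an extracellular matrix protein of vessels, at 109.5 to 815 CPM (median 401). Egfl7, a secreted matrix protein, and the sialomucin Emcn had medians of 168 and 135 CPM. Nos3 had a median of 109 CPM, and Ecscr, a modulator of endothelial motility, one of 75.2 CPM. Fabp4 was at 124 to 857 CPM (median 610.4), and its partner in capillary lipid handling by role, Gpihbp1, was at 0 to 42.8 CPM, with 0 in Hoil1-/-Il4ra f/f replicate 1, where 3 counts would be 0.238 CPM.

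To see the mix of endothelial genes apart from their amount, each gene was expressed as counts per 1000 counts summed over 12 reference genes (Pecam1, Cdh5, Kdr, Tie1, Tek, Flt1, Eng, Esam, Emcn, Egfl7, Robo4 and Clec14a). This scale shows a mix within endothelium only where a gene's counts come from endothelium, which was not tested. Genes that other cells also carry, such as Lyve1, Pdpn, Cd34 and Nr2f2, need not meet this. The reference counts were 18578 to 663185 per CD45- library. For the 29 genes outside the reference, the median coefficient of variation (CV) over the 12 libraries was 34.1% on this scale and 63.0% in CPM, and it was lower on this scale for 25 of them. Plvap varied least, from 752 to 1090 per 1000 reference counts (CV 10.7%), followed by Erg, an ETS family transcription factor of endothelium, at 11.3 to 24.2 (CV 17.5%), and Nos3, the endothelial nitric oxide synthase, at a CV of 17.5%. Of all 41 genes, the most variable were Sele (CV 134%, an 86.0-fold range), Lyve1 (122%), Selp (98.7%, 35.3-fold), Prox1 (98.2%), Madcam1 (91.9%, 14.9-fold), Gpihbp1 (83.3%), Cldn5 (80.4%, 13.1-fold) and Apln (73.7%, 12.2-fold). The 3 genes of leukocyte adhesion on venules were thus all among the 5 most variable.

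One library had a mix of its own. In replicate 3 of Hoil1-/-Il4ra ΔIEC, the VEGF receptors were the lowest of all 12 libraries per 1000 reference counts, with Kdr at 34.5, Flt1 at 65.7 and Flt4 at 5.19. The arterial Notch ligand Dll4, at 6.79, and Erg, at 11.3, were also lowest there. Highest of the 12 in the same library were Madcam1 at 236, Cldn5 at 143, Aplnr (the apelin receptor) at 46.5, Fabp4 at 176 and Cd34 at 122. So were Plvap at 1090, Eng at 208, Pecam1 at 201, Esam, Clec14a, Vwf, Mmrn2, Ephb4, Sox18 and Icam2. Kdr and Flt1 belong to the reference, so their low counts in this library raise the values of the other genes on this scale. In the other 2 libraries of its genotype, Kdr was at 114 and 121 and Madcam1 at 31.3 and 35.7 per 1000 reference counts. It was also the shallowest of the CD45- libraries, at 6.03 M counts, of which 24881 were on reference genes. The library left out of the tests, replicate 3 of Hoil1-/-Il4ra f/f, was lowest of all 12 in Sele (0.495), Selp (5.44), Madcam1 (15.8) and Nr2f2 (6.06) and highest in Lyve1 (8.65) on this scale.

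The adhesion genes of venules, Sele (ENSMUSG00000026582.6, chr1:164048234-164057677, plus strand), Selp (ENSMUSG00000026580.16, chr1:164115264-164150026, plus) and Madcam1 (ENSMUSG00000020310.9, chr10:79664559-79668537, plus), and Apln (ENSMUSG00000037010.7, chrX:48025146-48034853, minus) are the genes whose Hoil1 differences are given next in full. The 250 bases before their start sites are shown because these were among the genes that varied most against the endothelial reference. The sequences are from RefSeq (GRCm38.p6), read 5′ to 3′ on the strand of the gene, and capitals mark letters found by a search of both strands for AGGAAG, the core of sites for ETS factors such as ERG, and for GGGNNNTTCC, a form of the NF-κB site. They span chr1:164047984-164048233 (plus strand) for Sele, chr1:164115014-164115263 (plus) for Selp, chr10:79664309-79664558 (plus) for Madcam1 and chrX:48034854-48035103 (minus) for Apln.
Sele: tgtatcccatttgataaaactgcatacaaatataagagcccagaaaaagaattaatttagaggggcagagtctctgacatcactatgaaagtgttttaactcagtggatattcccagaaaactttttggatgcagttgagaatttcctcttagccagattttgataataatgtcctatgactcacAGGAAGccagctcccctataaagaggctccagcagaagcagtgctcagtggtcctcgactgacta
Selp: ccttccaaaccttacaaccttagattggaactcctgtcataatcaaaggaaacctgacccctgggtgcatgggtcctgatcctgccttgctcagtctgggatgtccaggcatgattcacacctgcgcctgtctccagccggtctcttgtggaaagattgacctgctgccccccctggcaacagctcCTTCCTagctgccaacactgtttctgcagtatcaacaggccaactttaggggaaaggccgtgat
Madcam1: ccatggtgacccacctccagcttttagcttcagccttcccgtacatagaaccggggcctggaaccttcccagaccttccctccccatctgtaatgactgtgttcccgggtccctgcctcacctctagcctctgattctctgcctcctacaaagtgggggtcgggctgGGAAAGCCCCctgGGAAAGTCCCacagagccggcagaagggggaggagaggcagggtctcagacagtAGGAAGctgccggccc
Apln: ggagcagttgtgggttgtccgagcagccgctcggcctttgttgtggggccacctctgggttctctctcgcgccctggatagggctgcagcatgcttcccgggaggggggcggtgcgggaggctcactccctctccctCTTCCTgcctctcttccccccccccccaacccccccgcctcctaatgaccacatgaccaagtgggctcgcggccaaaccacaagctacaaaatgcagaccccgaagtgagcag
The ETS letters occurred once in each of the 4 promoters, and the NF-κB letters occurred only in Madcam1, 2 times on the minus strand, with first bases 83 and 70 before the start. No match overlaps another. Of 32817 RefSeq promoters of this length, 29.5% hold the ETS letters and 4.65% the NF-κB letters. The promoter table held 26 of the 41 genes, of which 15 had the ETS and 3 the NF-κB letters. Other forms of the NF-κB site were not searched for, so a promoter without these letters is not shown to lack such a site. A match is a description of the sequence, and no binding was measured.

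Sele, which encodes E-selectin, and Selp, which encodes P-selectin, lie in the same direction on chromosome 1 and capture rolling leukocytes. Sele was at 99.0, 257 and 19.2 CPM in Hoil1+/+Il4ra f/f, 7.02, 15.1 and 96.4 CPM in Hoil1+/+Il4ra ΔIEC, 5.63, 4.33 and 2.81 CPM in Hoil1-/-Il4ra f/f, and 33.3, 50.5 and 18.7 CPM in Hoil1-/-Il4ra ΔIEC. All 3 Hoil1-/-Il4ra f/f libraries were below all other CD45- libraries. Selp was at 446, 879 and 193 CPM, then 49.5, 70.9 and 405, then 31.4, 106 and 30.9, and last 228, 323 and 264 CPM in the same order. Within Il4ra f/f the Hoil1-/- libraries were again all below the Hoil1+/+ libraries, and within Il4ra ΔIEC they lay inside the Hoil1+/+ range. The markers of pericytes and smooth muscle had the same order in Il4ra f/f mice, summing to 3702, 5251 and 6003 CPM in Hoil1+/+ and to 550, 2411 and 848 CPM in Hoil1-/- libraries, with none of the 8 at 0 in all CD45- libraries. The part of these cells in the values of the selectins, and in those of Nr2f2 and Notch3 given below, was not tested.

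Per 1000 reference counts the 3 Hoil1-/-Il4ra f/f libraries were also below the 3 Hoil1+/+Il4ra f/f libraries for both selectins, by narrow gaps. Sele was at 42.6, 29.6 and 3.99 in Hoil1+/+Il4ra f/f and at 3.70, 1.52 and 0.495 in Hoil1-/-Il4ra f/f, and Selp at 192, 101 and 40.2 and at 20.6, 37.3 and 5.44. The log2 difference of Hoil1-/- from Hoil1+/+ in Il4ra f/f was -3.59 for Sele (pooled SD 1.65, n = 3) and -2.51 for Selp (pooled SD 1.29, n = 3). In Il4ra ΔIEC it was -0.23 (pooled SD 0.84) and 0.49 (pooled SD 0.81), each smaller than the spread between replicates. Platelets and their precursors also carry P-selectin, and the summed level of 5 of their markers was 5.95 to 68.8 CPM in CD45- libraries, with Pf4 at 0 in all 12. Their part in the Selp values was not tested.

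Madcam1 had another order of libraries than the selectins. It was at 206, 503 and 422 CPM in Hoil1+/+Il4ra f/f, 60.3, 60.9 and 251 CPM in Hoil1+/+Il4ra ΔIEC, 97.9, 330 and 89.6 CPM in Hoil1-/-Il4ra f/f, and 272, 367 and 813 CPM in Hoil1-/-Il4ra ΔIEC. In CPM the last group lay above all Hoil1+/+Il4ra ΔIEC libraries, while the groups overlapped in Il4ra f/f. Per 1000 reference counts, the groups overlapped in both Il4ra genotypes. In Il4ra ΔIEC the lowest Hoil1-/- library was at 31.3 and the highest Hoil1+/+ library at 31.7. Replicate 3 of Hoil1-/-Il4ra ΔIEC was at 236. On this scale, the log2 difference was -0.64 (pooled SD 1.07) in Il4ra f/f and 1.39 (pooled SD 1.18) in Il4ra ΔIEC (n = 3 in each).

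Apln, the secreted ligand of the apelin receptor and a marker of sprouting endothelium, was higher in Hoil1-/- libraries of Il4ra f/f mice. It was at 3.76, 21.6 and 9.46 CPM in Hoil1+/+Il4ra f/f, 20.5, 25.5 and 21.4 CPM in Hoil1+/+Il4ra ΔIEC, 30.0, 28.5 and 40.2 CPM in Hoil1-/-Il4ra f/f, and 75.8, 77.5 and 13.7 CPM in Hoil1-/-Il4ra ΔIEC. All Hoil1-/-Il4ra f/f libraries were above all Hoil1+/+Il4ra f/f libraries. Per 1000 reference counts these were 1.62, 2.49 and 1.97 against 19.7, 10.0 and 7.09, a log2 difference of 2.48 (pooled SD 0.57, n = 3). In Il4ra ΔIEC the values were 7.14, 9.24 and 2.70 against 8.74, 7.52 and 3.98, a log2 difference of 0.19 (pooled SD 0.79).

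**Figure D4:**
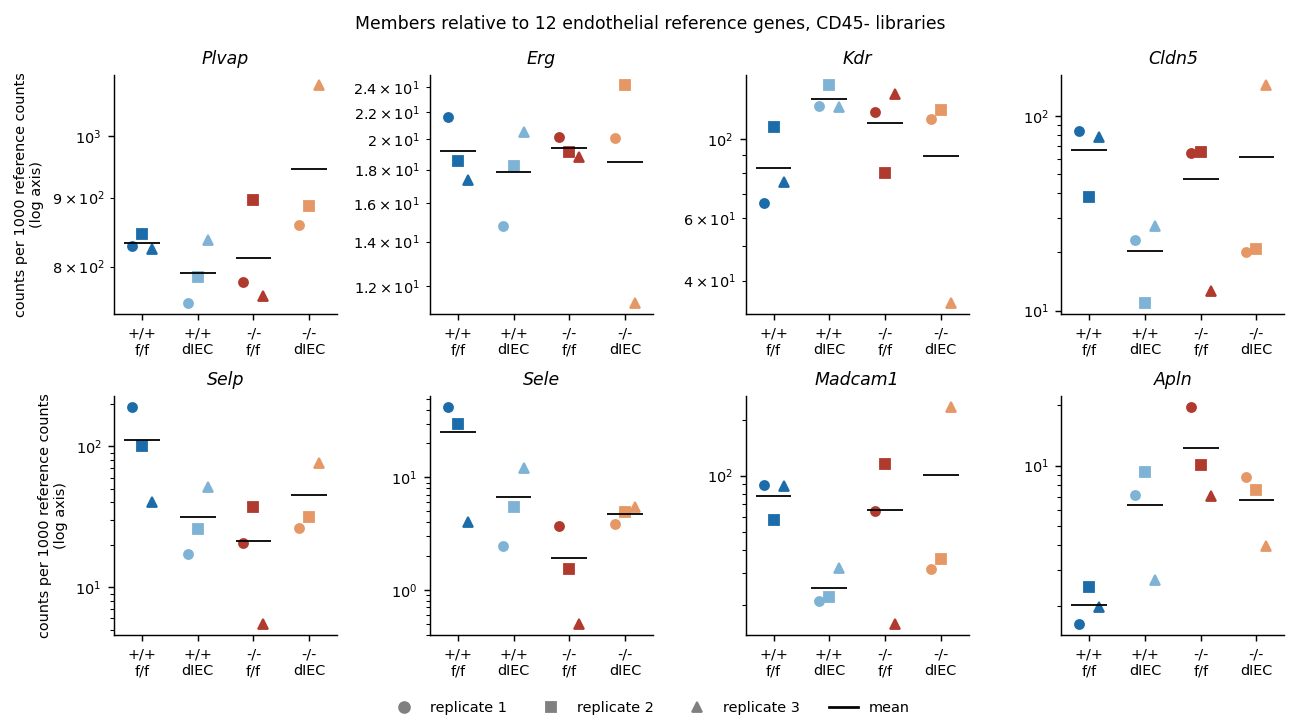
Counts of 8 endothelial genes per 1000 counts of 12 endothelial reference genes in each CD45- library, on log axes, by genotype, with shapes for replicates and a bar at each mean. Plvap stays between 752 and 1090, Sele spans an 86.0-fold range with its lowest value, 0.495, in Hoil1-/-Il4ra f/f, and Apln is higher in all 3 Hoil1-/-Il4ra f/f than in all 3 Hoil1+/+Il4ra f/f libraries.

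Whether Hoil1 changed these genes was tested in 11 CD45- libraries with a mean for each genotype, over 16453 genes. In Il4ra f/f mice 0 of the 41 genes had an adjusted p under 0.05 in the quasi-likelihood test of edgeR, against 0.0365% of all genes (6 genes). At an unadjusted p under 0.05 there were 8 of the 41, against 2161 of all genes (13.1%). The log2 fold changes of 40 of the 41 genes were below 0, with a median of -1.24 for the blood genes and -1.22 for the lymphatic genes, against -0.17 for all genes, and with libraries scaled to endothelial genes they were -0.01 and 0.11. Apln was the exception, at 1.34 (SE 0.69). With all 12 libraries the medians were -0.63 and 0.00, and 0 of the 41 passed.

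The 8 genes at an unadjusted p under 0.05 in Il4ra f/f mice were Sele, Selp, Sox17, Sox18, Nr2f2, Rasip1, Egfl7 and Aplnr. Sele had a log2 fold change of -4.63 (SE 1.31, adjusted p = 0.289, edgeR) and Selp one of -2.88 (SE 0.97, adjusted p = 0.338). Sox17 was at 31.7, 126 and 69.3 CPM in Hoil1+/+Il4ra f/f and at 4.36, 16.4 and 74.8 CPM in Hoil1-/-Il4ra f/f, the last being the library left out of the fit. Its log2 fold change was -2.86 (SE 0.87, adjusted p = 0.315, edgeR) without that library and -1.19 (SE 0.90, adjusted p = 0.717) with it. Nr2f2, the factor of venous identity that fibroblasts also express, was at 83.9, 189 and 174 CPM against 17.7, 60.2 and 34.4 CPM, with no overlap and a log2 fold change of -1.93 (SE 0.63, adjusted p = 0.324, edgeR).

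Other tools called some of them. DESeq2 called 4 of the 41 in Il4ra f/f mice (Sele, Selp, Sox17 and Nr2f2, all lower in Hoil1-/-), where it called 3.73% of all genes. The likelihood ratio test of edgeR called 2 (Sele and Sox17), where it called 2.13% of all genes. Without replicate 2 of Hoil1-/-Il4ra f/f, which leaves 1 library of that genotype that is assumed to vary like the others, the quasi-likelihood test called 1 gene of the 41, Gpihbp1, and 2.71% of all genes. Among all 16453 genes, 10.7% had all 3 Hoil1-/-Il4ra f/f libraries below all 3 Hoil1+/+Il4ra f/f libraries and 3.68% had them above. Of the 41 genes, 4 (Sele, Selp, Nr2f2 and Cldn5) were below and 1 (Apln) above in this way.

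In Il4ra ΔIEC mice the signs were the opposite. The log2 fold changes of 39 of the 41 genes were above 0, with a median of 0.84 for the blood genes and 0.86 for the lymphatic genes, against 0.06 for all genes, and Sele (-0.22) and Prox1 (-0.15) were the exceptions. Scaled to endothelial genes, the medians were 0.22 and 0.07. None of the 41 passed the quasi-likelihood test of edgeR, where 0.00608% of all genes did (1 gene), and DESeq2 and the likelihood ratio test called 0 of them too. At an unadjusted p under 0.05 there were 4 genes of the 41, Madcam1, Icam2, Sox18 and Cldn5, and 7.66% of all genes. Madcam1 had the largest log2 fold change of the 41, at 2.00 (SE 0.70, adjusted p = 0.603, edgeR). Cldn5 was at 66.3, 30.1 and 214 CPM in Hoil1+/+Il4ra ΔIEC and at 174, 215 and 493 CPM in Hoil1-/-Il4ra ΔIEC, a log2 fold change of 1.54 (SE 0.66, adjusted p = 0.628).

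Of the 41 genes, 4 (Cd34, Pdpn, Madcam1 and Icam2) had all 3 Hoil1-/-Il4ra ΔIEC libraries above all 3 Hoil1+/+Il4ra ΔIEC libraries, and none had them below. Among all genes 5.92% were above and 5.48% below. Icam2 was at 18.9, 30.6 and 69.4 CPM against 115, 122 and 75.8 CPM. Pdpn was at 7.22, 2.56 and 9.90 CPM against 16.1, 19.5 and 10.9 CPM. In both genes the highest Hoil1+/+ library and the lowest Hoil1-/- library lay close together.

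Averaged over the Il4ra genotypes, 0 of the 41 passed the quasi-likelihood test of edgeR, where 0.0182% of all genes did (3 genes), and 3 had an unadjusted p under 0.05, as did 5.28% of all genes. These were Sele at a log2 fold change of -2.43 (SE 0.77, adjusted p = 0.772), Apln at 1.32 (SE 0.47, adjusted p = 0.873) and Sox17 at -1.27 (SE 0.53, adjusted p = 0.926). DESeq2 called Sele alone of the 41, where it called 1.02% of all genes. The blood and lymphatic medians were -0.19 and -0.23, against -0.08 for all genes, and 0.11 and 0.34 with all 12 libraries.

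**Figure D5:**
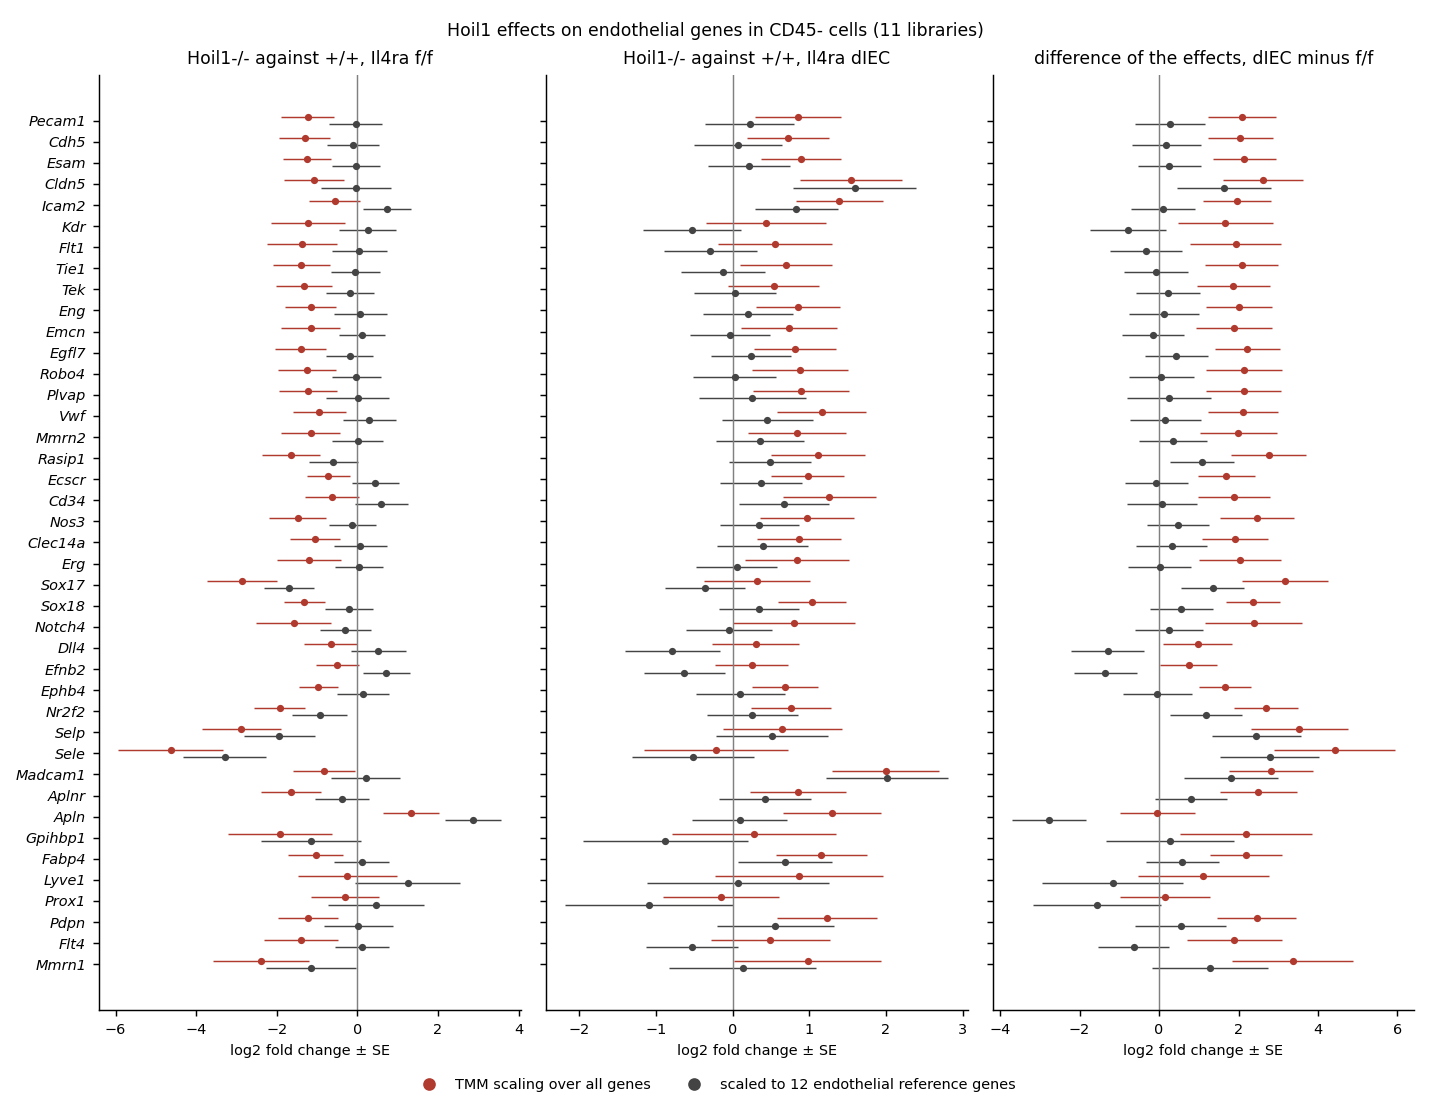
Log2 fold changes ± SE of the 41 genes for Hoil1-/- against Hoil1+/+ in Il4ra f/f mice, in Il4ra ΔIEC mice, and the difference of both effects, fitted with edgeR on 11 CD45- libraries with TMM scaling (red) or scaled to 12 endothelial reference genes (dark grey). With TMM the blood genes have medians of -1.24, 0.84 and 2.10, and with the endothelial scaling -0.01, 0.22 and 0.25.

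Because nearly all of the genes had the same sign, the same fits were made with libraries scaled to the 12 reference genes, which moves the median of all genes to 0.80 in Il4ra f/f, -0.66 in Il4ra ΔIEC and 0.04 averaged. The 12 reference genes are themselves among the 36 blood genes, so that the blood medians are held near 0 by this scaling and only differences of single genes from the rest can be read. With this scaling 0 of the 41 passed the quasi-likelihood test in any comparison. Sele had a log2 fold change of -3.29 (SE 1.03, adjusted p = 0.495, edgeR) in Il4ra f/f, Selp one of -1.94 (SE 0.87, adjusted p = 0.495) and Sox17 one of -1.71 (SE 0.62, adjusted p = 0.495). Apln was highest of the 41, at 2.87 (SE 0.70, adjusted p = 0.411), and was the 1 gene of the 41 called by the likelihood ratio test with this scaling, which called 0.748% of all genes. Madcam1 was at 2.02 (SE 0.80, adjusted p = 0.634) in Il4ra ΔIEC.

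The Il4ra effect averaged over the Hoil1 genotypes was above 0 for 38 of the 41 genes, with medians of 0.62 (blood) and 0.81 (lymphatic) on the log2 scale against 0.06 for all genes. The quasi-likelihood test of edgeR called 0 of the 41 and 0% of all genes, of which 971 had an unadjusted p under 0.05, and DESeq2 called 0 of the 41 and 159 of all genes. Sox17 was the only one of the 41 at an unadjusted p under 0.05, at 1.22 (SE 0.53, adjusted p = 0.808). Scaled to endothelial genes, where the median of all genes was -0.67, the medians of these lists were -0.11 and -0.15. Without replicate 2 of Hoil1-/-Il4ra f/f, 1 gene of the 41, Gpihbp1, was called, and 1.26% of all genes.

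The difference between the Hoil1 effects in Il4ra ΔIEC and Il4ra f/f mice, the interaction, was above 0 for 40 of the 41 genes, with medians of 2.10 (blood) and 1.89 (lymphatic) against 0.29 for all genes. Of the 41, 26 had an unadjusted p under 0.05, as did 3409 of all genes (20.7%), and neither any of the 41 nor any other gene (0%) passed after adjustment in the quasi-likelihood test of edgeR. The smallest adjusted p of the 41 was in Sox18, a transcription factor of vessel development, at 2.35 (SE 0.68, adjusted p = 0.136). It was at 95.2, 222 and 152 CPM in Hoil1+/+Il4ra f/f, 81.0, 75.2 and 175 CPM in Hoil1+/+Il4ra ΔIEC, 41.2, 83.8 and 235 CPM in Hoil1-/-Il4ra f/f, and 244, 293 and 145 CPM in Hoil1-/-Il4ra ΔIEC. Interaction values were 4.42 for Sele (SE 1.53, adjusted p = 0.173), 3.53 for Selp (SE 1.22, adjusted p = 0.173), 3.17 for Sox17 (SE 1.08, adjusted p = 0.17) and 2.69 for Nr2f2 (SE 0.81, adjusted p = 0.143).

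The call of the interaction depended on the tool and on single libraries. DESeq2 called 7 of the 41 (Madcam1, Nr2f2, Rasip1, Sele, Selp, Sox17 and Sox18), where it called 8.91% of all genes, and the likelihood ratio test called 5 (Nr2f2, Sele, Selp, Sox17 and Sox18), where it called 7.43%. Without replicate 3 of Hoil1+/+Il4ra ΔIEC, which had 20735 CPM of blood genes against 7166 and 6895 CPM in its 2 companions, the quasi-likelihood test called 13 of the 41 and 7.48% of all genes. Without replicate 2 of Hoil1-/-Il4ra f/f it called 2 (Gpihbp1 and Nr2f2) and 4.13% of all genes. Scaled to the endothelial reference genes, where the median of all genes was -1.40, the blood median was 0.25 and the lymphatic median -0.64. Apln was then at -2.78 (SE 0.93, adjusted p = 0.209), and Sele at 2.78 (SE 1.24, adjusted p = 0.238). With all 12 libraries and TMM the medians were 1.46 and 0.73.

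Arteries and veins differ in their Notch and ephrin genes, and those genes had smaller values than the selectins. In Il4ra f/f mice the log2 fold changes were -1.58 (SE 0.93) for the receptor Notch4, -0.67 (SE 0.65) for its ligand Dll4, -0.50 (SE 0.54) for the arterial ephrin Efnb2 and -0.97 (SE 0.49) for the venous receptor Ephb4, each with an adjusted p of 0.403 or more. Dll4 was at 77.6, 145 and 64.1 CPM in Hoil1+/+Il4ra f/f and 60.2, 58.9 and 106 CPM in Hoil1-/-Il4ra f/f, with overlap. The growth factor receptors Kdr, Flt1, Tie1, Tek and Eng lay between -1.39 and -1.16, with adjusted p of 0.403 or more. The junction genes Pecam1, Cdh5 and Esam were at -1.24 (SE 0.65), -1.31 (SE 0.62) and -1.26 (SE 0.60).

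Among the lymphatic genes, Lyve1 was at 4.88, 7.96 and 3.85 CPM in Hoil1+/+Il4ra f/f, 3.07, 3.58 and 6.71 CPM in Hoil1+/+Il4ra ΔIEC, 9.12, 0.0656 and 49.1 CPM in Hoil1-/-Il4ra f/f, and 10.2, 10.2 and 4.16 CPM in Hoil1-/-Il4ra ΔIEC. Its highest and lowest values were thus both in Hoil1-/-Il4ra f/f, the lowest resting on 2 counts. Prox1 was at 14.1, 6.70 and 3.34 CPM, then 1.78, 11.4 and 3.51, then 7.54, 5.41 and 10.7, and last 5.57, 4.83 and 4.57 CPM in the same order. The 4 genotypes overlapped in both genes. Log2 fold changes in Il4ra f/f mice were -0.25 (SE 1.23) for Lyve1 and -0.30 (SE 0.85) for Prox1, each smaller than its standard error.

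Mmrn1, a multimerin stored by lymphatic endothelium and platelets, was at 10.4, 17.6 and 5.83 CPM in Hoil1+/+Il4ra f/f and at 2.70, 1.57 and 22.01 CPM in Hoil1-/-Il4ra f/f, with a log2 fold change of -2.39 (SE 1.19, adjusted p = 0.401, edgeR) in the fit without the last library. In the same fit Flt4 was at -1.40 (SE 0.91), from 22.8, 158 and 68.3 CPM in Hoil1+/+Il4ra f/f and 28.0 and 34.4 CPM in both fitted libraries of Hoil1-/-Il4ra f/f. The library left out held 139 CPM of Flt4.

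Beyond these genes, 47 of 48 others listed with the same pathways could be tested in CD45- cells, and 0 passed the quasi-likelihood test of edgeR in any Hoil1 or Il4ra comparison. Of the 4 with the smallest p in Il4ra f/f mice, Icam1, an adhesion ligand of leukocytes induced with the selectins, had a log2 fold change of -3.47 (SE 0.89, adjusted p = 0.234) and was at 357, 676 and 156 CPM in Hoil1+/+Il4ra f/f and 25.5, 45.5 and 35.0 CPM in Hoil1-/-Il4ra f/f. Angptl4, an inhibitor of lipoprotein lipase, had a log2 fold change of 2.37 (SE 0.46, adjusted p = 0.122). It was at 6.13, 8.05 and 10.6 CPM in Hoil1+/+Il4ra f/f and at 61.1, 23.4 and 0 CPM in Hoil1-/-Il4ra f/f. The 0 was in the library left out of the fit and lies below all Hoil1+/+Il4ra f/f libraries. The transcription factor Hhex was at -2.09 (SE 0.55, adjusted p = 0.254) and the pericyte receptor Notch3 at -2.14 (SE 0.60, adjusted p = 0.279). All 10 other Notch pathway genes were below 0 in Il4ra f/f and above 0 in Il4ra ΔIEC mice, with medians of -1.55 and 0.41, but scaled to endothelial genes 7 of the 10 in Il4ra f/f and all 10 in Il4ra ΔIEC were below 0, with medians of -0.60 and -0.65. In Il4ra ΔIEC mice the 4 with the smallest p were Vegfa at -1.10 (SE 0.49), Bmp4 at 1.32 (SE 0.64), Bmp2 at -0.98 (SE 0.49) and Hhex at 0.91 (SE 0.46), each with an adjusted p of 0.628.

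For the interaction, the 4 with the smallest p were Hhex at 2.995 (SE 0.71, adjusted p = 0.121, edgeR), Angptl4 at -2.60 (SE 0.62, adjusted p = 0.121), Notch3 at 2.79 (SE 0.76, adjusted p = 0.129) and Icam1 at 3.79 (SE 1.08, adjusted p = 0.134). For Hoil1 averaged over Il4ra the 4 were Angptl4 at 1.07 (SE 0.31, adjusted p = 0.659), Icam1 at -1.57 (SE 0.53, adjusted p = 0.839), the flow-induced factor Klf2 at -1.66 (SE 0.70, adjusted p = 0.926) and Notch3 at -0.75 (SE 0.37, adjusted p = 0.927). These Angptl4 values also come from the fit without the Hoil1-/-Il4ra f/f library that was at 0 CPM. For Il4ra the 4 were Tgfb1 at 0.83 (SE 0.37), Hes1 at 0.66 (SE 0.30), Nrp1 at 1.11 (SE 0.53) and Hey1 at 1.79 (SE 0.89), with adjusted p of 0.808 or more.

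Between the sorts, 37 of the 47 differed, 30 higher and 7 lower in CD45- cells, while of all genes 49.6% differed, 25.1% being higher and 24.5% lower. All 6 genes listed under the angiopoietin pathway, a list that also holds Angptl4, were higher. Among them, the ligand Angpt2 was at 14.6 to 44.5 CPM in CD45- and 0 to 0.752 CPM in CD45+ cells (log2 fold change 10.88, SE 0.79). The phosphatase Ptprb was at 7.25 (SE 0.93). Of the 7 VEGF pathway genes 5 were higher, led by Vegfc at 7.47 (SE 0.75), the ligand of Flt4, and Pgf was lower at -1.28 (SE 0.49). Of the 10 Notch genes 6 were higher, including Dll1, Jag1 and Jag2, and Notch2 was lower at -2.98 (SE 0.20). The ETS factors Fli1 (-1.71, SE 0.29) and Ets1 (-1.52, SE 0.35), relatives of Erg, were lower in CD45- cells, while Erg itself was higher at 5.70 (SE 0.78, adjusted p = 1.49e-05, edgeR).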

How the data were processed

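Bulk RNA-seq was made from sorted live cells with or without CD45, taken from ileum without Peyer's patches, after part of the epithelial fraction was recombined with the digested lamina propria. Libraries were poly-A selected from small amounts of RNA. Per the paper's methods and the labels, the authors used cutadapt for trimming, STAR for alignment (mm10) and featureCounts for counting, and deposited raw counts of reads per gene with no normalization. The strand setting of the counting is not given in the sources used here. Gene IDs were matched to GENCODE M21 symbols and exon lengths, and 184 IDs did not match.

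CPM were computed with TMM factors of edgeR 4.0.16 over 24 libraries. Tests used the quasi-likelihood fit of edgeR after filterByExpr with a minimum count of 10, with Benjamini-Hochberg adjustment over all genes tested and a threshold of 0.05. The SE given with edgeR values was worked back from the test. It is the absolute log2 fold change divided by the square root of the test statistic. Hoil1 and Il4ra effects and their interaction were contrasts of genotype means in 11 CD45- libraries, and the sorts were compared in 21 libraries with genotype and sort. Alternatives were DESeq2 1.42.0, the likelihood ratio test of edgeR, RLE factors, no count filter, all libraries, libraries scaled to 12 endothelial genes, and leaving out each library. Tests were checked on simulated counts, but their power and error rate at the spread of these libraries were not tested. Where nothing ties samples to separate cultures or litters, p-values measure only the spread between these samples. The floor given for a count of 0 is 3 counts and covers counting error only. The table held 0 columns of other samples.

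The 41 genes, the marker and pathway lists and the reference genes were chosen with earlier results of these data known. Of other pathway genes, the 4 with the smallest p per genotype comparison are named, and of the 41 those at the ends of a measure or with an unadjusted p under 0.05. Promoter sequences are from RefSeq (GRCm38.p6).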

Additional observations from a re-analysis of the deposited data

How the results depend on the processing

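None of the 41 genes called between the sorts changed direction under the alternatives run. The medians of genes with no call did change sign, with the blood median of the averaged Hoil1 effect at -0.19 and at 0.11 with all 12 libraries, and the lymphatic median in Il4ra f/f mice at -1.22 and at 0.11 with endothelial scaling. The counts of the 41 genes called by the quasi-likelihood test were 0 in the 5 genotype comparisons, and DESeq2 called 1 for Hoil1 averaged over Il4ra, 4 in Il4ra f/f mice and 7 for the interaction. The likelihood ratio test called 2 in Il4ra f/f mice and 5 for the interaction, and with the scaling to endothelial genes, an alternative added after seeing the data, it called 1 in Il4ra f/f mice. Leaving out 1 library at a time gave 0 to 0 calls for the averaged Hoil1 effect, 0 to 1 in Il4ra f/f mice, 0 to 0 in Il4ra ΔIEC mice, 0 to 1 for Il4ra, 0 to 13 for the interaction and 39 to 41 between the sorts. Where Lyve1 was among the genes called between the sorts, it was lower in CD45- cells, unlike the others. The causes were not tested.

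Over all genes, the calls for the averaged Hoil1 effect, Il4ra f/f, Il4ra ΔIEC, Il4ra and the interaction were 3, 6, 1, 0 and 0, and became 168, 613, 138, 159 and 1466 with DESeq2, 135, 350, 62, 143 and 1223 with the likelihood ratio test, 0 in each with all libraries, 1, 6, 1, 0 and 0 with RLE factors, 4, 11, 1, 0 and 1 without the filter, and 1, 0, 0, 0 and 1 with endothelial scaling. Leaving out 1 library gave 1 to 173, 0 to 474, 0 to 2, 0 to 220 and 0 to 1199, the highest without Hoil1-/-Il4ra f/f replicate 2 for the averaged, Il4ra f/f and Il4ra effects and without Hoil1+/+Il4ra ΔIEC replicate 3 for the others. The blood median in Il4ra f/f ran from -1.79 to -0.73, in Il4ra ΔIEC from 0.58 to 1.53 and for the interaction from 1.59 to 2.80 when libraries were left out. Each list median and each single gene value in the genotype comparisons was refitted under the alternatives and with libraries left out. Of 190 such refits of list medians, 163 stayed within 1 spread of the main value. Of 266 refits of single genes, 242 kept their side of the threshold while 24 passed it.

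No paired analysis was possible because the labels name no replicate, mouse, litter or day that samples share. Ages are the same in both sorts for both ΔIEC genotypes (9.7, 9.7 and 9 weeks, and 9.6, 9.6 and 9.1 weeks) but not for both f/f genotypes, and an age shared by 2 mice does not tell which samples belong together. In CD45- libraries of 6.03 M counts, 3 counts are 0.415 CPM, which limits what can be said of Lyve1, Prox1, Mmrn1 and Gpihbp1.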

Other observations

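Outside the 41 genes, the genes whose levels were most like those of the core endothelial genes were listed over the 12 CD45- libraries, which share depth and cell composition. Likeness was Pearson's r of log2 CPM with the mean of Pecam1, Cdh5, Kdr, Tie1 and Esam, over 11053 genes. Tcf4, a basic helix-loop-helix transcription factor, came first (r = 0.9898), at 38.6 to 239 CPM. Shank3, best known as a scaffold of synapses, came next (r = 0.984), at 39.6 to 525 CPM. The next 13 had r of 0.978 to 0.984 and were Amotl1, Slc44a2, Slc43a3, Arap3, Apbb2, Lrrc8c, Cyyr1, Fzd4, Podxl, Prex1, Oaz2, Plpp3 and Sorbs3. Of these, Fzd4, a frizzled receptor that also binds norrin, was at 35.1 to 267 CPM, and Podxl, a sialomucin of vessels and podocytes, at 146 to 1482 CPM.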
